A study of Mus musculus with 45 samples.

Results

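The signaling lymphocytic activation molecule (SLAM) family receptors Slamf1, Cd84, Slamf6, Ly9, Cd48 and Slamf7 were examined together with Sh2d1a, which encodes the adaptor SAP, and the kinase gene Fyn. These 8 genes were taken by symbol from the 55450 genes of the deposited count table, with earlier results of these data known. RNA-sequencing was performed on 45 samples of lymphocytes sorted from draining popliteal lymph nodes of immunized mice, to ask how the loss of the sphingosine-1-phosphate receptor S1PR4 alters effector lymphocytes. Mice aged 8 to 12 weeks, of both sexes, received 20 µL of an incomplete Freund's adjuvant emulsion with 50 µg ovalbumin and 5 µg LPS in the hind footpad. Follicular helper T (Tfh) cells and non-Tfh CD4+ T cells were collected on Day 6, while germinal center (GC) and non-GC B cells were taken on Day 9. Each population came from S1pr4-/- mice (S1PR4-/-; strain B6.129P2-S1pr4tm1Dgen/J, with 10 or more backcrosses to C57/BL6) and from WT littermates, with 6 samples per group except for non-GC B cells, which had 5 WT and 4 S1PR4-/- samples. The deletion is present in every tissue of these mice, so each S1PR4-/- population developed in an S1PR4-deficient animal. The study's methods give 6 WT and 6 S1PR4-/- mice for the sorting. However, the labels do not say whether each sample was a separate mouse, so the p-values measure the spread between these samples.

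SLAM family receptors are type I membrane proteins of lymphocytes. Slamf1, CD84, Slamf6, Ly9 and Slamf7 bind a copy of themselves on a neighboring cell, whereas CD48 is anchored to the membrane by a lipid and binds CD244 and CD2. Tyrosine switch motifs in the cytoplasmic tails of some of these receptors, though not all, recruit SAP, which in turn brings the kinase Fyn to the receptor. This pathway is best known in the GC for holding Tfh cells and antigen-presenting B cells in prolonged contact, and humans lacking SAP develop X-linked lymphoproliferative disease with poor GC formation.

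The 6 receptor genes lie within 364.5 kb of mouse chromosome 1 (mm10, GENCODE M21), between Ly9 at chr1:171588624-171607410 on the minus strand and Slamf6 at chr1:171917515-171953170 on the plus strand. Slamf7 occupied chr1:171632403-171653035 on the minus strand. Cd48 at chr1:171682009-171705258, Slamf1 at chr1:171767127-171801184 and Cd84 at chr1:171839697-171890718 were on the plus strand. Sh2d1a lies at chrX:42502453-42529330 and Fyn at chr10:39368855-39565381, both on the plus strand. Fyn shares its chromosome with the targeted S1pr4 gene, at a distance of 41930 kb.

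Matches to the switch motif, the sequence that SAP reads in receptor tails, are shown for each gene that held one. The switch motif was searched in frame in the longest coding sequence of each gene, as codons for threonine, any residue, tyrosine, any 2 residues, and valine or isoleucine. It occurred at least once in 7.95% of 21584 mouse coding genes, and at least 2 times in 0.607%. Slamf1, Cd84, Slamf6 and Ly9 each held 2 matches, Slamf7 and Cd48 each held 1, and Sh2d1a and Fyn held none. The coding-strand sequences below are from mm10, with the tyrosine codon in capitals.
Slamf1, codon 286 of 343, chr1:171792339-171792356: actattTATgcccaagta
Slamf1, codon 333 of 343, chr1:171799588-171799605: acagttTATgccagtgtg
Cd84, codon 263 of 329, chr1:171884605-171884622: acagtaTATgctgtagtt
Cd84, codon 298 of 329, chr1:171885601-171885618: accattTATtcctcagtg
Slamf6, codon 293 of 351, chr1:171939437-171939454: actgtgTATgcacaagtc
Slamf6, codon 317 of 351, chr1:171941664-171941681: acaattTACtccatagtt
Ly9, codon 585 of 654, chr1:171593912-171593929: actccaTATgataaagtg
Ly9, codon 623 of 654, chr1:171593438-171593455: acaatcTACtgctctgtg
Slamf7, codon 300 of 335, chr1:171636327-171636344: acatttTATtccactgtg
Cd48, codon 105 of 240, chr1:171695903-171695920: acctacTACatgagagtg

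The matches of Slamf1, Cd84, Slamf6, Ly9 and Slamf7 lay within the last 69 codons of each gene, where the cytoplasmic tail is encoded. The match in Cd48 lay 135 codons from the end of a protein that has no cytoplasmic tail. A match describes the sequence and does not show that SAP binds there.

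Total expected counts ran from 26299429 to 45548215 per sample. S1pr4 had 0 to 40 counts in the 22 S1PR4-/- samples and 505 to 6305 in the 23 WT samples. Levels are given as counts scaled to library size (CPM), normalized over all 45 samples. The summed level of 8 T cell markers was between 4105 and 5669 CPM in the T cell samples and at most 101 CPM in the B cell samples. The sum of 8 B cell markers was between 6577 and 13478 CPM in the B cell samples and at most 406 CPM in the T cell samples. GC B cell markers summed to between 1304 and 2269 CPM in GC B cells and to at most 23.8 CPM in non-GC B cells, and Tfh markers to between 1802 and 3037 CPM in Tfh cells and at most 112 CPM in non-Tfh cells. The labelled populations therefore carried their defining markers. Some of these genes encode proteins used for the sorting, namely Cd4, Fas, Cxcr5 and Pdcd1, so part of the contrast was set by the sort. In WT Tfh cells Cxcr5 had a mean of 945 CPM and Pdcd1 of 660 CPM.

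Compared per kilobase of exon, with all annotated exons of a gene merged, the members covered a wide range within each population. In WT Tfh cells Fyn stood highest at 285 ± 16.8 CPM per kb (SD, n = 6), followed by Cd48 at 205 ± 17.2 CPM per kb. Ly9 at 71.2 ± 4.13 and Slamf6 at 67.8 ± 6.22 CPM per kb were the next receptors in Tfh cells. Slamf7 stood lowest there, at 2.30 ± 0.660 CPM per kb. In WT GC B cells Cd48 led at 170 ± 20.7 CPM per kb, followed by Ly9 at 56.2 ± 8.39 and Slamf7 at 45.1 ± 7.09 CPM per kb. Cd84 at 5.52 ± 1.55 CPM per kb was the lowest receptor in GC B cells, whereas Slamf7 was the lowest receptor in both T cell populations. SAP message stood at the bottom in B cells, at 0.00824 ± 0.0105 CPM per kb in WT GC B cells. By this measure Cd48 was ranked 1 or 2 in each of the 8 groups, while the rank of the other members changed with the population. The ranks depend on the merged exon length, which was 1189 bases for Cd48 and 10832 for Slamf6. Without that scaling, WT Tfh cells held 734 CPM of Slamf6 and 244 CPM of Cd48.

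**Figure D1:**
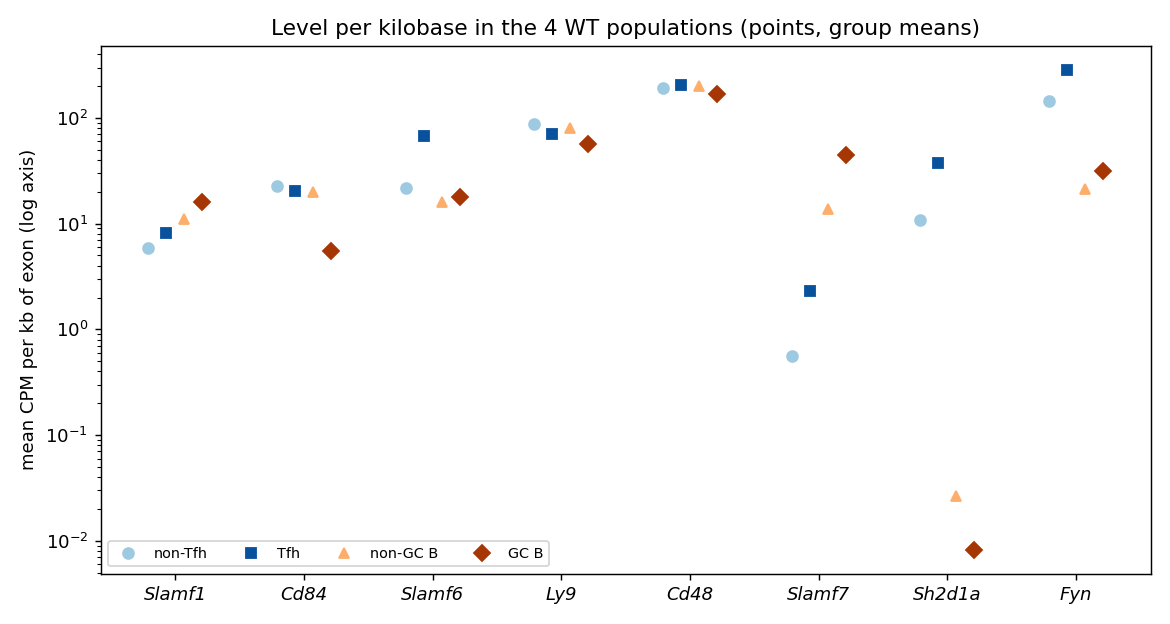
Mean CPM per kilobase of exon (log axis) of each of the 8 genes in the 4 WT populations, with 1 point per group mean (n = 6, and n = 5 for non-GC B cells). Cd48 and Ly9 stay in a narrow band, Slamf7 spans from 0.560 in non-Tfh cells to 45.1 in GC B cells, and Sh2d1a falls to 0.00824 in GC B cells.

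Within CD4+ T cells, WT Tfh cells carried more message than WT non-Tfh cells for Slamf6, Slamf7, Sh2d1a and Fyn, and none of the 8 genes was lower past the threshold. With an FDR under 0.05 and a fold change above 1.5 in edgeR's quasi-likelihood test, 4 of 8 members were called, against 43.2% of the 13481 genes tested. The share of members is close to that of all genes. In S1PR4-/- mice 4 of 8 were again called higher, against 43.4% of all genes. Fewer cells of a type within a sorted sample and less RNA per cell cannot be told apart in these bulk samples.

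Within B cells, WT GC B cells carried more Slamf1, Slamf7 and Fyn and less Cd84 than WT non-GC B cells. These 4 calls were made among 7 members, since Sh2d1a had too few counts to be tested in B cells, and 47.8% of all genes tested were called. In S1PR4-/- B cells Slamf7 and Fyn were called higher and Cd84 and Ly9 lower, again 4 of 7 members, against 48.2% of all genes. Read against these shares, the number of members called in either lineage did not stand out from the transcriptome.

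Between the genotypes no member was called in any population. In edgeR's test 0 of 8 members passed in Tfh cells and 0 of 8 in non-Tfh cells, against 0.496% and 0.114% of all genes tested. In GC and non-GC B cells 0 of 7 passed, against 0.0612% and 0.0537%. DESeq2 and limma with voom also called 0 members in each of the 4 comparisons. An unadjusted p under 0.05 was reached by Slamf1 and Cd84 in non-Tfh cells and by Slamf6 in GC B cells, and by 2586, 1486, 540 and 593 genes in all in Tfh, non-Tfh, GC B and non-GC B cells. The estimated differences were small. They ran from -0.33 to 0.11 on the log2 scale in Tfh cells, from -0.18 to 0.22 in non-Tfh cells, from -0.22 to 0.24 in GC B cells and from 0.08 to 0.26 in non-GC B cells. All 7 members tested in non-GC B cells had a positive difference and 6 of 8 in Tfh cells a negative one, beside medians over all genes of -0.00714 and -0.00244. The widest 95% intervals belonged to Slamf7, which reached -0.70 in Tfh cells and 0.78 in non-Tfh cells. The interval for Slamf7 in non-GC B cells reached 0.60. Outside those of Slamf7, no 95% interval reached a 1.5-fold difference, so for the other members a change of that size lay outside the intervals.

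**Figure D2:**
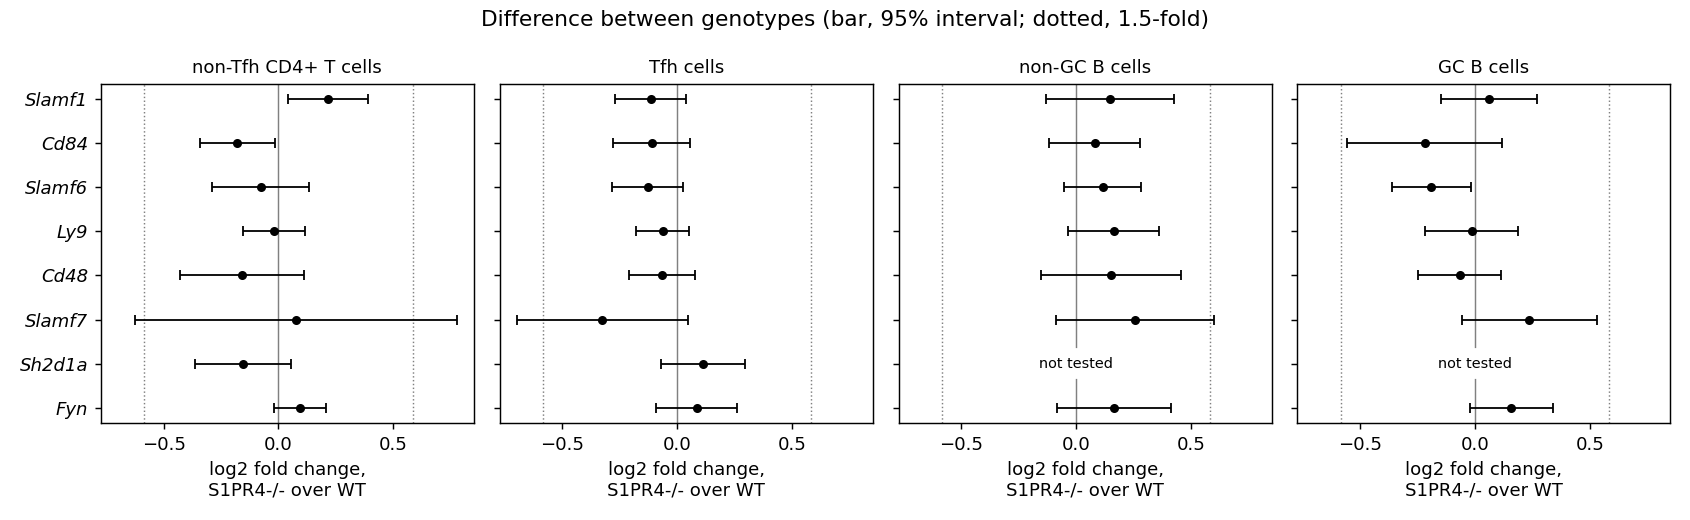
Log2 fold change of S1PR4-/- over WT for each gene in the 4 populations, with 95% intervals from edgeR's quasi-likelihood fit and dotted lines at a 1.5-fold difference in either direction. Estimates lie between -0.33 and 0.26, and only intervals of Slamf7 cross a dotted line.

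Slamf1 is a self-ligand that T cells use as a costimulator and that marks activated lymphocytes. In WT non-Tfh cells its level ran from 34.9 to 37.6 CPM with a median of 36.2, and in WT Tfh cells from 46.9 to 57.1 with a median of 48.7. The WT T cell groups did not overlap, but the difference of 0.46 ± 0.06 (log2, SE) stayed under the 1.5-fold threshold (edgeR adjusted p = 9.58e-06). In S1PR4-/- mice non-Tfh cells ran from 36.6 to 53.7 CPM (median 40.7) and Tfh cells from 40.3 to 52.9 (median 44.97), and these groups overlapped. The difference there was 0.15 ± 0.09 (edgeR adjusted p = 0.174).

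On average, B cells held more Slamf1 than T cells of either kind. WT non-GC B cells measured 68.2, 72.3, 84.1, 64.7 and 52.1 CPM and S1PR4-/- non-GC B cells 65.5, 82.7, 73.7 and 80.1 CPM. GC B cells ran from 80.2 to 114 CPM (median 97.9) in WT and from 82.5 to 124 CPM (median 98.2) in S1PR4-/- mice. Nearly all GC B samples were above the non-GC B samples, with slight overlap in both genotypes. The WT difference of 0.59 ± 0.11 was just above the threshold at 1.501-fold (edgeR adjusted p = 0.000586), and that in S1PR4-/- mice was 0.50 ± 0.12 (adjusted p = 0.00313, edgeR). The WT call was lost without GC B replicate 1, 3 or 4, or without non-GC B replicate 1, 4 or 5, with values from 0.50 to 0.58.

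Slamf1 was also the member for which the genotypes differed most in non-Tfh cells. S1PR4-/- samples were 0.22 higher on the log2 scale (95% interval 0.04 to 0.39, edgeR adjusted p = 0.340), or 0.14 without S1PR4-/- non-Tfh replicate 1, the sample at 53.7 CPM. An exact two-sided permutation test of the log2 CPM values gave p = 0.00866, or 0.0404 after adjustment over 56 comparisons of neighboring groups. Leaving out that replicate gave an adjusted p of 0.0505 (exact permutation test), and leaving out any 1 WT non-Tfh sample gave 0.0779 to 0.130. Without any 1 S1PR4-/- non-GC B sample the adjusted p was 0.0513 to 0.0539. Those samples are not in this comparison, and its unadjusted p stayed at 0.00866 (exact permutation test), so only the adjustment over all pairs moved. The WT values sat within 34.9 to 37.6 CPM, whereas the S1PR4-/- values spread up to 53.7 CPM. The genotype effect in Tfh cells was -0.11, and the test of its difference from that in non-Tfh cells gave -0.33 ± 0.11 (edgeR adjusted p = 0.362).

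CD84 is a self-ligand that contributes to stable contact between T and B cells. In T cells it was nearly flat, with WT non-Tfh cells from 125 to 162 CPM (median 145) and WT Tfh cells from 111 to 138 CPM (median 127). S1PR4-/- non-Tfh cells ran from 104 to 134 CPM (median 129.6) and S1PR4-/- Tfh cells from 105 to 133 CPM (median 116). The Tfh to non-Tfh difference was -0.17 (95% interval -0.33 to -0.01, edgeR adjusted p = 0.0517) in WT and -0.09 (edgeR adjusted p = 0.351) in S1PR4-/- mice.

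In B cells Cd84 fell in the GC. Outside the GC, WT B cells measured 114, 131, 127, 129 and 123 CPM and S1PR4-/- non-GC B cells 119, 151, 141 and 114 CPM. WT GC B cells ran from 24.9 to 49.7 CPM (median 32.7) and S1PR4-/- GC B cells from 26.7 to 36.1 CPM (median 28.6). Every GC B sample was below every non-GC B and T cell sample. The decrease was -1.79 ± 0.16 (log2, SE), or 3.45-fold, in WT (edgeR adjusted p = 7.19e-07) and -2.08 ± 0.11 in S1PR4-/- mice (adjusted p = 4.07e-08, edgeR).

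Slamf6, also called Ly108, is a self-ligand whose signal can turn from activating to inhibitory when SAP is lacking. WT non-Tfh cells ran from 205 to 283 CPM (median 218) and WT Tfh cells from 654 to 817 CPM (median 748). In S1PR4-/- mice non-Tfh cells ran from 192 to 263 CPM (median 223) and Tfh cells from 613 to 750.3 CPM (median 651). Tfh cells were clearly above all other samples in both genotypes. The increase in WT was 1.64 ± 0.10, or 3.11-fold (edgeR adjusted p = 1.87e-09), and that in S1PR4-/- mice 1.61 ± 0.09 (edgeR adjusted p = 1.65e-09).

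B cells held Slamf6 at about the non-Tfh level or below it. The WT non-GC B samples measured 178, 173, 164, 183 and 162 CPM and S1PR4-/- non-GC B cells 177, 207, 168 and 193 CPM. GC B cells ran from 156 to 218 CPM (median 192) in WT and from 150.05 to 185 CPM (median 174) in S1PR4-/- mice. These B cell groups overlapped. The GC difference was 0.23 ± 0.08 in WT (edgeR adjusted p = 0.0208, 1.17-fold) and -0.07 ± 0.09 in S1PR4-/- mice (adjusted p = 0.492, edgeR). Between genotypes GC B cells differed by -0.19 (95% interval -0.36 to -0.02), with an unadjusted p of 0.0329 in edgeR and an adjusted p of 0.985.

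Ly9, or CD229, is a self-ligand of T and B cells. WT non-Tfh cells ran from 277 to 308 CPM (median 286) and WT Tfh cells from 216 to 253 CPM (median 237). S1PR4-/- non-Tfh cells ran from 259 to 331 CPM (median 280.0) and S1PR4-/- Tfh cells from 209.9 to 246 CPM (median 229.6). Tfh samples were below non-Tfh samples without overlap in both genotypes. The WT difference of -0.30 ± 0.05 (edgeR adjusted p = 0.000159) and the S1PR4-/- difference of -0.32 ± 0.06 (edgeR adjusted p = 0.000439) were both under 1.5-fold.

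In B cells Ly9 was also lower in the GC. Values of 264, 227, 307, 293 and 249 CPM were measured in WT and of 314, 295, 285 and 306 CPM in S1PR4-/- non-GC B cells. GC B cells ran from 152 to 218 CPM (median 183) in WT and from 163 to 200.3 CPM (median 187) in S1PR4-/- mice. No GC B sample reached its non-GC B group. The difference was -0.47 ± 0.11 in WT (edgeR adjusted p = 0.00220, under 1.5-fold) and -0.64 ± 0.07, or 1.56-fold lower, in S1PR4-/- mice (adjusted p = 1.19e-05, edgeR). The test of the difference between the genotypes gave -0.17 (95% interval -0.45 to 0.10, edgeR adjusted p = 1.00), so the call in S1PR4-/- mice and not in WT does not show that they differ.

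Cd48 encodes the ligand of CD244 and CD2, and was the most even member over the 8 groups. In T cells it ran from 179.6 to 290.4 CPM (median 219) in WT non-Tfh, from 162 to 245 CPM (median 209) in S1PR4-/- non-Tfh, from 212 to 269 CPM (median 244) in WT Tfh and from 208 to 253 CPM (median 241) in S1PR4-/- Tfh cells. WT non-GC B cells measured 264, 257, 177, 253 and 229 CPM and S1PR4-/- non-GC B cells 196, 282, 301 and 267 CPM. GC B cells ran from 159 to 222 CPM (median 213) in WT and from 175 to 207 CPM (median 199) in S1PR4-/- mice. All of these groups overlapped within each lineage. The WT differences were 0.10 in T cells (95% interval -0.16 to 0.35) and -0.16 in B cells (95% interval -0.40 to 0.08). In S1PR4-/- mice they were 0.21 ± 0.09 (adjusted p = 0.0409) and -0.37 ± 0.11 (adjusted p = 0.0104) in edgeR's test, both under 1.5-fold.

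Slamf7, or CRACC, is best known from natural killer cells, activated B cells and plasma cells. It was the member that spanned the widest range among the receptors. WT non-Tfh cells ran from 1.58 to 3.26 CPM (median 2.90) and WT Tfh cells from 7.34 to 15.3 CPM (median 9.97). S1PR4-/- non-Tfh cells ran from 1.09 to 5.30 CPM (median 2.56) and S1PR4-/- Tfh cells from 7.43 to 10.7 CPM (median 7.81). All Tfh samples were above all non-Tfh samples. The increase was 2.04 ± 0.24, or 4.11-fold, in WT (edgeR adjusted p = 2.50e-06) and 1.66 ± 0.29 in S1PR4-/- mice (edgeR adjusted p = 0.000167).

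Summed levels of B, plasma, natural killer and dendritic cell markers were also higher in WT Tfh than in WT non-Tfh cells, as Slamf7 was. The 8 B cell markers, each of which had counts in every T cell group, summed to between 141 and 406 CPM in WT Tfh cells and to between 10.97 and 44.7 CPM in WT non-Tfh cells. Cd22 made up most of the Tfh sum, with a mean of 179 of 287 CPM in WT and 194 of 217 CPM in S1PR4-/- Tfh cells. The 6 plasma cell markers summed to between 238 and 588 CPM in WT Tfh cells and to between 109 and 159 CPM in WT non-Tfh cells. Xbp1, which T cells also express, made up most of this sum, with a mean of 236 CPM in WT Tfh and 117 CPM in WT non-Tfh cells. The 5 markers of natural killer and NKT cells summed to between 36.0 and 82.9 CPM in WT Tfh and between 1.38 and 6.07 CPM in WT non-Tfh cells. Klrb1c made up most of the Tfh sum, with a mean of 51.7 CPM in WT Tfh and 1.78 CPM in WT non-Tfh cells. Gzma was also higher, at 4.92 and 0.718 CPM. The other markers of that list hardly differed and stayed low, namely Ncr1 (0.114 and 0.105 CPM), Klrk1 (0.902 and 0.900 CPM) and Zbtb16 (0.131 and 0.0821 CPM). For 5 dendritic cell markers the sums were 6.01 to 17.2 and 0.934 to 4.30 CPM. On average, Slamf7 in WT Tfh cells was at 5.11% of its level in WT GC B cells, and the B cell markers at 3.40% of theirs, or 1.51% for the 7 markers other than Cd22. Against WT non-GC B cells the shares with Cd22 were 16.8% and 2.24%. In S1PR4-/- Tfh cells Slamf7 was at 3.47% of the S1PR4-/- GC B level, the 8 markers at 2.69% and the 7 without Cd22 at 0.337%. In non-Tfh cells Slamf7 was at 4.09% of the non-GC B level in WT and 3.63% in S1PR4-/- mice, and the 8 B cell markers at 0.203% and 0.104%. Against GC B cells, WT non-Tfh cells had 1.24% of the Slamf7 level and 0.309% of the markers.

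Several of the B and plasma cell markers had lower means in S1PR4-/- than in WT Tfh cells, with no test made here. Mean levels in WT and S1PR4-/- Tfh cells were 61.8 ± 54.9 and 5.01 ± 3.55 CPM (SD) for Jchain, the joining chain of secreted antibody. For Mzb1, a chaperone of antibody-producing cells, they were 40.01 ± 29.6 and 2.00 ± 2.00 CPM. For the B cell receptor subunit gene Cd79a they were 22.7 ± 20.8 and 4.17 ± 8.39 CPM. The WT values of these genes thus varied widely between samples. Cd22 (179 and 194 CPM) and Prdm1 (20.9 and 23.5 CPM) went the other way, with higher means in S1PR4-/- Tfh cells. The mean of Slamf7 was 10.5 CPM in WT and 8.44 CPM in S1PR4-/- Tfh cells. Cd22, Xbp1, Jchain, Mzb1, Cd79a, Prdm1 and Klrb1c were picked from the lists after their values were seen. Within the Tfh samples the highest Slamf7 value, 15.3 CPM in WT replicate 5, came with B cell markers at 221 CPM and plasma cell markers at 511 CPM. The part of RNA from B lineage, natural killer or dendritic cells in the T cell values of Slamf7 was not tested.

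In B cells Slamf7 was higher by more than an order of magnitude than in non-Tfh cells. WT non-GC B cells measured 57.6, 71.0, 75.3, 54.2 and 55.2 CPM and S1PR4-/- non-GC B cells 102, 68.4, 68.4 and 60.2 CPM. GC B cells ran from 169 to 250.5 CPM (median 198) in WT and from 192 to 327 CPM (median 232) in S1PR4-/- mice. GC B samples stood above all non-GC B samples. The increase was 1.79 ± 0.13, or 3.45-fold, in WT (edgeR adjusted p = 1.77e-07) and 1.76 ± 0.17 in S1PR4-/- mice (adjusted p = 4.63e-06, edgeR). The 6 plasma cell markers also varied among the GC B samples. Their sum was highest, at 8640 CPM, in WT replicate 2, which had the highest WT level of Slamf7, and highest, at 17435 CPM, in S1PR4-/- replicate 3, which had the highest level of all at 327 CPM. The sum in the other GC B samples was between 2007 and 8186 CPM, and its part in the Slamf7 values was not tested. Some samples high in Slamf7 had lower sums, such as WT replicate 3 (Slamf7 at 241 CPM, sum 4924 CPM) and S1PR4-/- replicate 6 (237 and 2025 CPM). Part of the Slamf7 exons, 9.24%, overlaps the antisense gene Gm37787, which did not exceed 1.76 CPM in any sample.

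Sh2d1a encodes SAP, an adaptor that docks on switch motifs in receptor tails. WT non-Tfh cells ran from 51.4 to 67.2 CPM (median 60.1) and WT Tfh cells from 195 to 227 CPM (median 207). S1PR4-/- non-Tfh cells ran from 46.8 to 70.0 CPM (median 50.9) and S1PR4-/- Tfh cells from 186 to 269 CPM (median 218). Tfh samples were far above non-Tfh samples without overlap. The increase was 1.80 ± 0.07, or 3.48-fold, in WT (edgeR adjusted p = 8.00e-11) and 2.08 ± 0.11, or 4.24-fold, in S1PR4-/- mice (edgeR adjusted p = 1.85e-09). The difference between these increases, 0.26 (95% interval -0.02 to 0.55), had an edgeR adjusted p of 0.580.

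In B cells Sh2d1a was close to absent from the libraries. The 6 WT GC B samples together held 8 counts, against 45992 in the 6 WT Tfh samples, and the S1PR4-/- GC B samples held 7. The S1PR4-/- non-GC B samples held 17 counts, in 3 of 4 samples. The WT non-GC B samples held 22 counts, all of them in replicate 4, at 0.722 CPM. The 11 B cell samples with no count allow a level of up to 0.0764 to 0.107 CPM, from 3 counts of each total. Scaled to library size, WT Tfh cells had 5243 times the level of WT GC B cells, with a 95% counting interval of 2661 to 12144, and WT non-Tfh cells 460.4 times that of WT non-GC B cells (304 to 735). These intervals cover counting error only. A stretch of the Sh2d1a exons, 26.6%, overlaps Tenm1 on the opposite strand, and Tenm1 had at most 5 counts in any sample.

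Fyn encodes the Src family kinase that SAP brings to the receptors, and which T cells also use in antigen receptor signaling. WT non-Tfh cells ran from 594 to 678 CPM (median 638) and WT Tfh cells from 1144 to 1361 CPM (median 1229). S1PR4-/- non-Tfh cells ran from 638 to 741 CPM (median 657) and S1PR4-/- Tfh cells from 1030.1 to 1552 CPM (median 1339.7). Tfh cells were above non-Tfh cells in every sample. The increase was 0.97 ± 0.05, or 1.96-fold, in WT (edgeR adjusted p = 6.95e-10) and 0.98 ± 0.08 in S1PR4-/- mice (edgeR adjusted p = 1.54e-07).

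B cells held several-fold less Fyn. WT non-GC B cells measured 88.6, 71.4, 93.1, 113 and 99.1 CPM and S1PR4-/- non-GC B cells 103, 108, 104 and 102 CPM. GC B cells ran from 120.4 to 156 CPM (median 131) in WT and from 135 to 179 CPM (median 152) in S1PR4-/- mice. GC B samples were above non-GC B samples without overlap. The increase was 0.62 ± 0.11 in WT (edgeR adjusted p = 0.000358) and 0.61 ± 0.09 in S1PR4-/- mice (adjusted p = 8.68e-05, edgeR), both 1.53-fold. The WT call was lost without non-GC B replicate 2, at 0.53, and the S1PR4-/- call without GC B replicate 4, 5 or 6 or non-GC B replicate 4, at 0.55 to 0.58. Total counts in place of TMM normalization and a single fit over all 8 groups also ended both calls, at 0.53 and 0.55 in WT and 0.50 and 0.55 in S1PR4-/- mice, and the replicate block ended the S1PR4-/- call at 0.54.

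**Figure D3:**
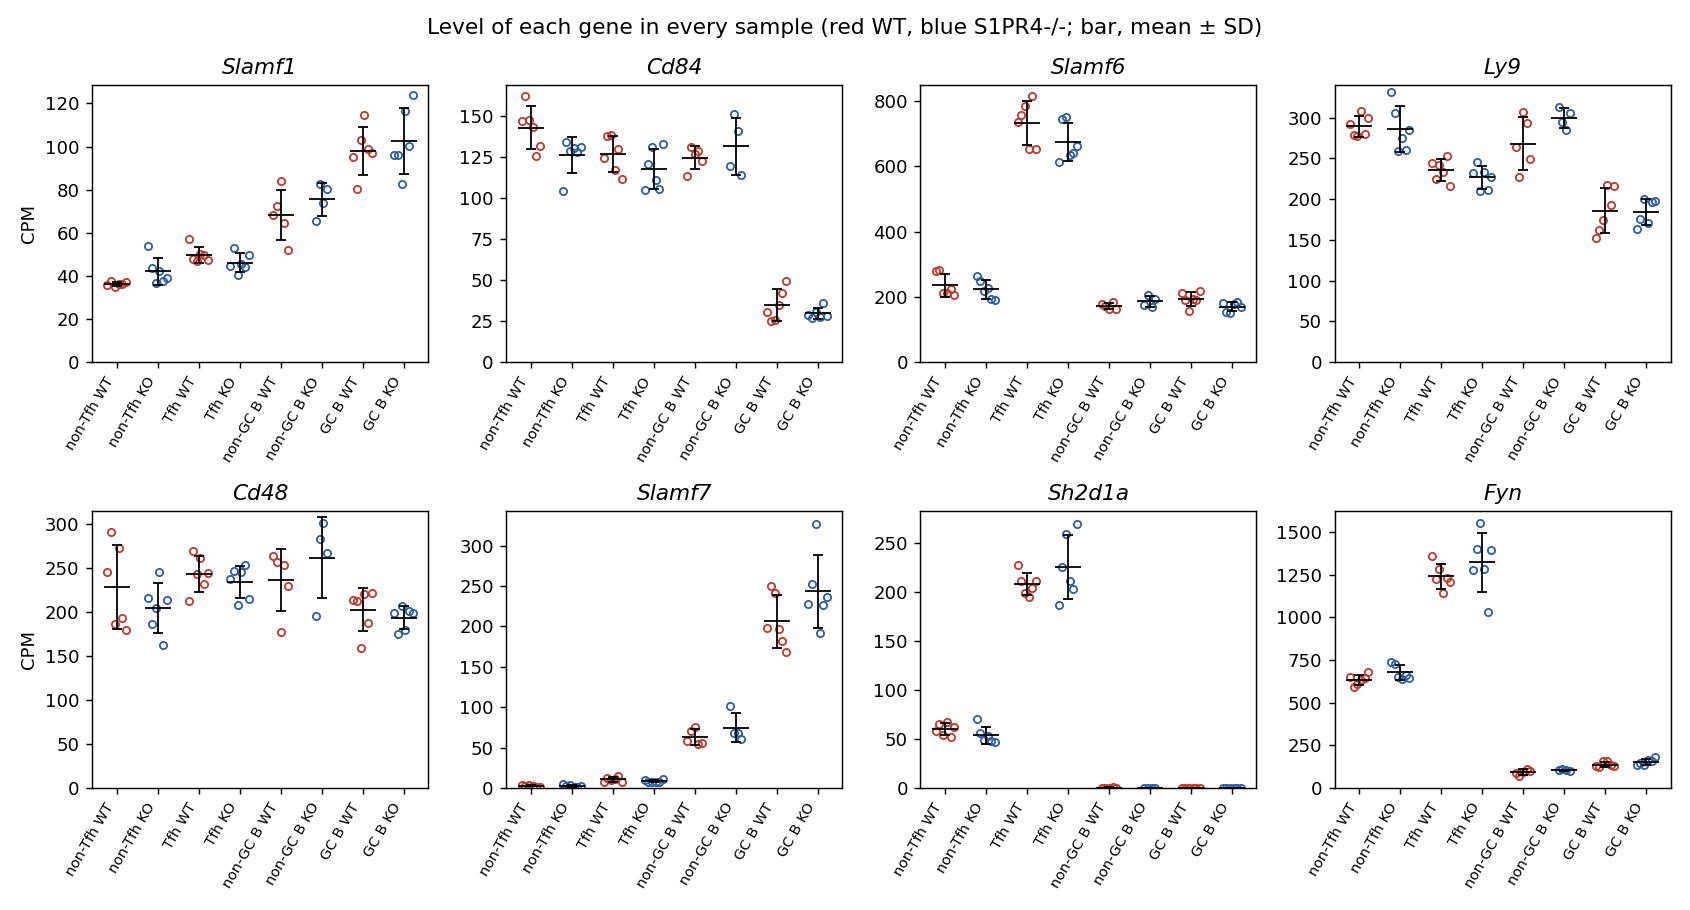
CPM of each gene in each of the 45 samples by population and genotype (circles, samples; bars, mean ± SD; linear axes from 0, with a separate scale for each gene). Slamf6, Sh2d1a and Fyn peak in Tfh cells, Slamf1 and Slamf7 in GC B cells, and Cd84 is lowest in GC B cells at 24.9 to 49.7 CPM, with WT and S1PR4-/- samples overlapping for every gene in each population.

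Cd84 and Slamf6 were the receptors whose shift in the GC populations differed between the T and B lineages, and the other 4 receptors did not pass. In a test of the difference between the Tfh minus non-Tfh and the GC B minus non-GC B shifts of WT mice, 4 of 8 members passed an FDR of 0.05 in edgeR, against 41.7% of the 15101 genes tested. One of these was Sh2d1a, which passed the count filter through T cells, and without it 3 of 7 members passed, a share close to that of all genes. For Cd84 the T cell shift exceeded the B cell shift by 1.67 ± 0.18 (log2, SE; adjusted p = 1.09e-07, edgeR). For Slamf6 it did so by 1.47 ± 0.13 (adjusted p = 5.61e-09, edgeR). The Cd84 value came with the fall in GC B cells, and the Slamf6 value with the rise in Tfh cells. For Fyn the excess was 0.42 ± 0.12 (edgeR adjusted p = 0.00936). Slamf1 with -0.07 (95% interval -0.33 to 0.20) and Slamf7 with 0.32 (95% interval -0.22 to 0.86) did not pass, nor did Ly9 with 0.23 (95% interval -0.02 to 0.49) or Cd48 with 0.32 (95% interval -0.04 to 0.68). The fourth member to pass, Sh2d1a with 3.46 ± 1.07 (edgeR adjusted p = 0.0118), entered the test through its T cell counts alone. Without non-GC B replicate 4, which held all counts of that group, its value was -1.84 (adjusted p = 0.173, edgeR). T and B cells were collected on different days, so lineage and day cannot be told apart in this comparison.

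**Figure D4:**
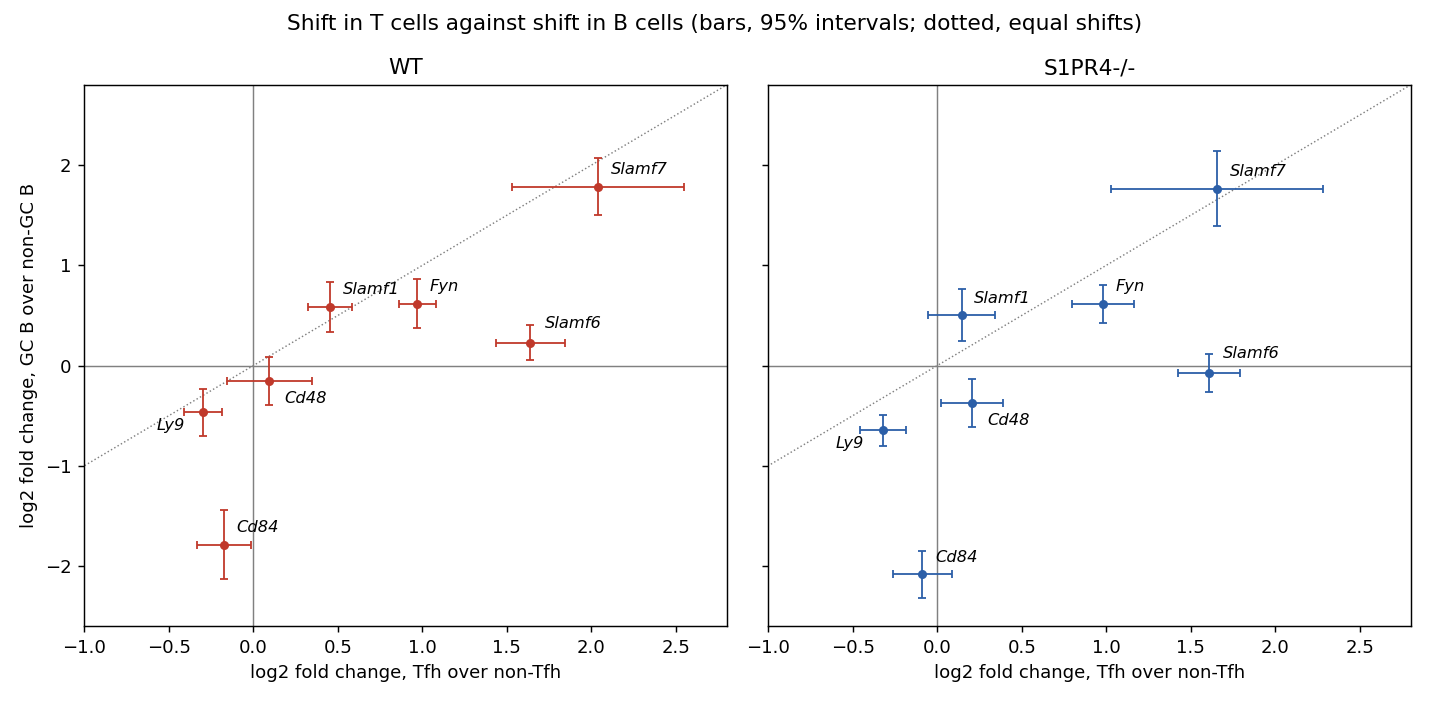
Log2 fold change of Tfh over non-Tfh cells (horizontal axis) against that of GC B over non-GC B cells (vertical axis) in WT and in S1PR4-/- mice, with 95% intervals and a dotted line of equal shifts. Sh2d1a is left out because it was not tested in B cells. Slamf7, Slamf1 and Ly9 lie near the line, Slamf6 lies to its right, and Cd84 lies below it at -1.79 in WT.

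Set directly against each other, WT GC B cells held more Slamf1 and Slamf7 than WT Tfh cells and less Cd84, Slamf6, Sh2d1a and Fyn. These were 6 of 8 members, against 44.3% of the 13719 genes tested. Sh2d1a passed the count filter only through Tfh cells and so had to differ, which leaves 5 of 7 members without it. The log2 differences were 0.99 ± 0.08 for Slamf1, 4.30 ± 0.19 for Slamf7, -1.86 ± 0.16 for Cd84, -1.92 ± 0.09 for Slamf6 and -3.17 ± 0.08 for Fyn. Outside the GC, WT non-GC B cells held more Slamf1 and Slamf7 and less Sh2d1a and Fyn than WT non-Tfh cells, or 4 of 8 members against 38.9% of all genes. Sh2d1a again passed the filter through T cells, and 3 of 7 members were called without it, close to the share of all genes. There the differences were 0.97 ± 0.10 for Slamf1, 4.67 ± 0.20 for Slamf7 and -2.71 ± 0.11 for Fyn. Cd84 differed by -0.14 (95% interval -0.29 to 0.02) and Slamf6 by -0.39 ± 0.09, under 1.5-fold. These comparisons carry the same difference in day, and lineage and day cannot be told apart.

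Whether the genotype effect depended on the population was tested within each lineage. In T cells 0 of 8 members passed an FDR of 0.05 in edgeR's interaction test, against 0.0139% of 14401 genes, and in B cells 0 of 7, against 0% of 14490 genes. DESeq2 and limma with voom called 0 members in either lineage as well. An unadjusted p under 0.05 was reached by Slamf1 in T cells and by Slamf6 in B cells, and by 1325 and 664 genes in all. The Slamf6 value was -0.30 (95% interval -0.54 to -0.05, edgeR adjusted p = 1.00).

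Ranking the 8 groups by mean log2 CPM gave 56 pairs of neighboring groups over the 8 genes, of which 12 differed in exact two-sided permutation tests after adjustment. None of the pairs differed for Cd48 or Ly9, whose levels formed a gradual series. For Cd84 the single break lay between S1PR4-/- Tfh and WT GC B cells, and for Slamf6 between S1PR4-/- Tfh and WT non-Tfh cells. Sh2d1a broke between Tfh and non-Tfh cells and between T and B cells. Fyn broke at the same places and once more between WT GC B and S1PR4-/- non-GC B samples. Slamf7 broke between WT GC B and S1PR4-/- non-GC B samples, between B and T cells, and between Tfh and non-Tfh cells. Slamf1 broke between WT non-GC B and WT Tfh cells and between the genotypes of non-Tfh cells. That last pair was the only one between genotypes of a population that differed, and it no longer did when some single samples were left out, as given above. For Slamf1, WT GC B and S1PR4-/- non-GC B cells were next to each other and did not differ (exact permutation test, adjusted p = 0.0571).

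The members fell into a few patterns over the 8 group means. Sh2d1a and Fyn followed each other with a Pearson r of 0.981, Slamf1 and Slamf7 with 0.987, and Cd84 and Ly9 with 0.892. Among 10851 genes, the closest to Sh2d1a were Icos (0.999), a costimulatory receptor of Tfh cells, Gprin3 and Ppic. Closest to Fyn were Arhgap10 (0.999), Synj2 and the chemokine receptor gene Ccr4, and closest to Slamf6 were Tradd (0.995), Sptlc1 and Epdr1. Closest to Slamf7 were Erp29 (0.997), a chaperone of the endoplasmic reticulum, Atp2a3 and Hpse, and closest to Slamf1 were Agpat4 (0.994), Pgpep1 and Dbnl. Cd84 was closest to Ezh1 (0.998), Ccdc125 and Ccser2, Ly9 to Ifit2 (0.996), Abcd4 and Afmid, and Cd48 to Rnf181 (0.965), Fam213b and Arntl. The 8 means share their libraries and depth, so these values are a description.

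Of 28 other genes of SLAM signaling and of the T and B cell contact, 26 were tested in WT T cells. Of these 9 were higher in Tfh cells and none lower, a share not above the 43.2% of all genes. They included Il21 (7.18 ± 0.24), Il4 (6.20 ± 0.37), Icos (2.36 ± 0.15) and the GC transcription factor gene Bcl6 (1.74 ± 0.10), all of which are products or regulators of Tfh cells. The phosphatase gene Ptpn11, whose product SHP-2 binds switch motifs, rose by 1.17 ± 0.09, and Nfkb1, a transcription factor downstream of SAP and Fyn, by 0.75 ± 0.08. The remaining 3 were low genes in T cells, namely the kinase gene Lyn (2.65 ± 0.34), Slamf9 (2.49 ± 0.64) and Cd244a (1.37 ± 0.48), the receptor for CD48. Lyn was at 11.8 ± 3.58 CPM in WT Tfh cells and at 487 ± 90.5 CPM in WT GC B cells, beside the B cell markers described above, whose part in these values was not tested. In S1PR4-/- T cells 10 of 25 were higher, among them Ifng (3.10 ± 0.69), and none was lower, beside 43.4% of all genes. Il4 and Slamf9 passed the count filter only through Tfh cells in both genotypes, so they could only be called higher.

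In WT B cells 22 of these genes were tested, and 3 were higher and 3 lower in GC B than in non-GC B cells, fewer in proportion than the 47.8% of all genes. The adaptor gene Sh2d1b1, which encodes the SAP relative EAT-2, rose by 5.39 ± 0.83, from a mean of 0.164 to one of 6.56 CPM. Cd40lg (2.32 ± 0.70) stayed under 1 CPM in each of the WT B cell samples, and Bcl6 rose by 0.64 ± 0.18. In both genotypes Sh2d1b1 and Cd40lg passed the count filter only through GC B cells, so they could only be called higher. Cd2, which binds CD48, changed by -0.68 ± 0.21, the inhibitory phosphatase gene Ptpn6 by -0.59 ± 0.10 and the ubiquitin ligase gene Cblb by -1.05 ± 0.11. In S1PR4-/- B cells 3 of 22 were higher (Sh2d1b1, Cd40lg, Bcl6) and 3 lower (Cd2, Prkcq, Cblb), beside 48.2% of all genes. GC B cells thus held message for EAT-2 while that for SAP was close to absent.

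Between the genotypes none of these genes passed in edgeR's test, out of 26 in Tfh, 23 in non-Tfh, 22 in GC B and 22 in non-GC B cells. The lowest adjusted p was 0.0599, for Il21 in Tfh cells. Its level ran from 107 to 161 CPM in WT and from 121 to 312 CPM in S1PR4-/- Tfh cells, a difference of 0.70 ± 0.18 (log2, SE).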

How the data were processed

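Lymphocytes were sorted as TCRβ+ CD4+ PD1+ CXCR5+ (Tfh), PD1- CXCR5- (non-Tfh), B220+ GL7+ Fas+ (GC B) and B220+ GL7- Fas- (non-GC B). The study's methods and the submitters' processing notes list Cutadapt 2.10 for trimming, STAR 2.5.3 for alignment to mm10, Picard for duplicates and RSEM 1.3.0 for quantification. The deposited values are RSEM's expected counts, unscaled for depth or length (8.83% of values are not whole). The kit was stranded, and the strand setting of the counting is not given in the sources used here. The methods name GENCODE M30, whereas the table has the 55450 genes of M21, from which coordinates and exon lengths were taken.

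Samples were grouped by their labels. Counts were rounded, filtered with filterByExpr and TMM-normalized in edgeR 4.0.16 (R 4.3.3). The quasi-likelihood test was run on all genes, with Benjamini-Hochberg adjustment over all genes tested, and calls needed an FDR under 0.05 and a fold change above 1.5. Interaction tests used the FDR alone. Standard errors and 95% intervals came from the F statistic. Levels used CPM, with a prior count of 2 for log2 values, and neighboring groups in the order of levels were compared by exact permutation of 2 groups (924 arrangements for 6 against 6 samples, smallest p 0.00216). Genes with a similar pattern were the 3 with the highest Pearson r over the 8 group means, among genes with at least 5 CPM in a group. DESeq2 1.42.0, limma 3.58.1 with voom, other normalizations, no filter, 1 fit over all groups, a replicate block and each sample left out were tried as alternatives. The pipeline was tested on simulated data. The 8 genes, the pathway list and the marker lists were chosen with earlier results of these data known.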

Additional observations from a re-analysis of the deposited data

Results flagged for a closer look

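In 64 sets of values (8 genes in 8 groups), 4 samples lay far from the rest of their group by Dixon's criterion, for which chance flags about 1 in 20 groups. Cd84 was lowest in S1PR4-/- non-Tfh replicate 1, at 104 CPM, with the nearest other sample at 128 CPM. Slamf1 was highest in WT Tfh replicate 1, at 57.1 CPM, with the nearest at 50.0 CPM. Sh2d1a was highest in S1PR4-/- GC B replicate 5, at 0.171 CPM, and in WT non-GC B replicate 4, at 0.722 CPM, in groups whose other samples were at or near 0.

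Another 4 results were picked out because the Tfh minus non-Tfh shift of WT mice differed from the GC B minus non-GC B shift in edgeR's interaction test. On the log2 scale the T cell shift exceeded the B cell shift by 1.67 for Cd84, 1.47 for Slamf6, 0.42 for Fyn and 3.46 for Sh2d1a, the last of which rests on the counts of 1 non-GC B sample.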

How the results depend on the processing

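Of 2076 recomputed single-gene values, 2055 kept their side of the threshold, 20 calls were lost and 1 reversed. Of the 1480 values not called, 49 changed sign, as for Slamf7 between genotypes in non-Tfh cells (-0.22 to 0.23). Calls lost were those of Slamf1 and Fyn in GC B against non-GC B cells, which lie close to 1.5-fold, and those of Sh2d1a, whose B cell counts are few. With total counts in place of TMM and with all 8 groups in one fit, 2 members were called in WT GC B against non-GC B cells in place of 4, since Slamf1 (0.50 and 0.52) and Fyn (0.53 and 0.55) fell under 1.5-fold. Leaving out 1 sample gave 3 to 4 calls there. For Sh2d1a, the difference between the T and B cell shifts ran from -1.84 without WT non-GC B replicate 4 to 4.17 without WT GC B replicate 5, and was 1.49 with limma and voom (adjusted p = 0.232). The same change to total counts moved the median of all genes in non-GC B against non-Tfh cells from -0.00165 to -0.14. Over all genes, S1PR4-/- against WT gave 67 calls in Tfh cells, 191 with DESeq2 and 153 with all 8 groups in one fit. Leaving out 1 sample gave 15 (without WT replicate 2 or 5, or S1PR4-/- replicate 1) to 117 calls (without S1PR4-/- replicate 3) there, and 11 to 27 (without WT replicate 6) in non-Tfh cells. The corresponding counts were 15 and 56 (DESeq2) in non-Tfh, 8 and 14 (DESeq2) in GC B, and 7, 16 (DESeq2) and 25 (all 8 groups) in non-GC B cells, and the T cell interaction gave 2, against 76 with DESeq2 and 10 with the replicate block. The B cell interaction gave 0, against 6 with DESeq2 and 5 with all 8 groups. None of these calls was a member. DESeq2 gave Sh2d1a no adjusted p in non-GC B against non-Tfh cells or in the difference between shifts. Between 8 and 13 neighboring pairs in the order of levels differed when 1 sample was left out, against 12. The count was 8 without any 1 of the S1PR4-/- non-GC B samples and 11 to 13 without any other sample. Leaving out a sample of that smallest group leaves its permutation tests fewer arrangements, which raises their smallest possible p. The causes of the other changes in this paragraph were not tested.

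Whether samples with the same replicate number came from 1 animal is not given, and the main tests treated them as unpaired. Same-numbered samples had deviations correlated above 0.1 in 0 to 3 pairs per comparison. Between Tfh and non-Tfh cells these correlations were all positive, at 0.046 to 0.207 in WT and 0.087 to 0.162 in S1PR4-/- mice. Samples with different numbers were not compared, so this check cannot decide whether the samples are paired. With the replicate block, 0 members were called between genotypes, 4 in T cells of either genotype, 4 in WT and 3 in S1PR4-/- B cells, where Fyn was at 0.54. Few counts limit Sh2d1a in B cells.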
